A study of Homo sapiens with 11 samples.

Results

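Receptors that carry growth signals in melanocytes were followed on chromatin at 9 loci, out of 19970 protein-coding gene windows in the RefSeq annotation. The members were named by symbol: KIT, EDNRB, MC1R and ERBB3 as receptors of the melanocyte lineage, and MET, AXL, NGFR, EGFR and IGF1R as receptors used by many cell types. Each locus was the gene body in RefSeq GRCh38.p14 with 50 kb on either side. The peaks came from 92-1, an established uveal melanoma cell line, exposed for 4 h to the vehicle DMSO or to FHT-1015, which blocks both SMARCA4 and SMARCA2, the ATPases that drive BAF chromatin remodelling complexes. Chromatin was precipitated with antibodies to acetylated histone H3 lysine 27 (H3K27ac), SMARCA4 (also named BRG1), MITF, TFAP2A and SOX10. The titles of the TFAP2A samples read AP-2, and the antibody label names TFAP2A. Each of the 5 antibodies gave 1 library per condition, which makes 10 libraries, and 1 input library of DMSO-treated cells completes the 11 samples. All groups therefore come from 1 cell line without replicates, and the labels do not say whether the libraries came from separate cultures. With such a design no test between conditions was possible, and the intervals below cover counting error only. The comparison asks what 4 h of BAF inhibition left of transcription factor binding, remodeller occupancy and acetylation around receptor genes.

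KIT is the receptor tyrosine kinase for stem cell factor and is needed for melanoblast survival and migration. EDNRB, the receptor for endothelins, and MC1R, the receptor for melanocortins, are G protein-coupled receptors, and both drive melanocyte growth and pigment production. ERBB3 is the neuregulin receptor of the neural crest and the glial lineage, and it signals in pairs with other ERBB receptors. MET binds hepatocyte growth factor, AXL binds GAS6, EGFR binds EGF and related ligands, and IGF1R binds the insulin-like growth factors. NGFR, the low-affinity neurotrophin receptor, marks neural crest cells. SOX10 is a high mobility group factor of the neural crest, MITF is the basic helix-loop-helix factor of the melanocyte lineage, and TFAP2A is a neural crest factor that shares many sites with MITF in melanocytes. H3K27ac marks active promoters and enhancers.

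The promoters of the members differed in what was bound there, and 5 of them are shown for that reason. A RefSeq entry with the start site was found for 7 of the 9 members, with 9 start sites in all. ERBB3 and NGFR had no entry and are described by coordinates alone. The sequences are the 250 bases before the start site, 5′ to 3′ on the strand of the gene, from RefSeq GRCh38.p14. Capitals mark matches to the motifs searched on both strands: CATGTG and CACGTG for MITF, GCCNNNGGC for TFAP2A, and ACAAAG and ACAATG for SOX10. The KIT promoter had no peak of any antibody. The EDNRB, MC1R and MET promoters lay under peaks of all 5 antibodies in DMSO. The EGFR promoter had peaks in the FHT-1015 libraries only.
KIT promoter, chr4:54657707-54657956, plus strand: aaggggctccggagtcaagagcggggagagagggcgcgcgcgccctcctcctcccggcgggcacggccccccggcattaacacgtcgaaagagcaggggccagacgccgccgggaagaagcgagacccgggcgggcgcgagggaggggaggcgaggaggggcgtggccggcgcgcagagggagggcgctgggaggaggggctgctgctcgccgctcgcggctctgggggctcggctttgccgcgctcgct
EDNRB promoter, chr13:77919683-77919932, minus strand: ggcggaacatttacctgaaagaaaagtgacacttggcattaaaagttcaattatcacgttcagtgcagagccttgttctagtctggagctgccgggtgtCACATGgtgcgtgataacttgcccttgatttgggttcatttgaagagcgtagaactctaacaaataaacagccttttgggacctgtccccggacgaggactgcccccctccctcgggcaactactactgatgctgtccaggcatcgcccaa
MC1R promoter, chr16:89918612-89918861, plus strand: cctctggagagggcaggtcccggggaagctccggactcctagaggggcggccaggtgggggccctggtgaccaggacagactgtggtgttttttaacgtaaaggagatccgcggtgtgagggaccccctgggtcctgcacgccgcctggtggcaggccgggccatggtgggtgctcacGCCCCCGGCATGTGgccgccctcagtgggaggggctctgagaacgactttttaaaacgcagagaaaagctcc
MET promoter, chr7:116671946-116672195, plus strand: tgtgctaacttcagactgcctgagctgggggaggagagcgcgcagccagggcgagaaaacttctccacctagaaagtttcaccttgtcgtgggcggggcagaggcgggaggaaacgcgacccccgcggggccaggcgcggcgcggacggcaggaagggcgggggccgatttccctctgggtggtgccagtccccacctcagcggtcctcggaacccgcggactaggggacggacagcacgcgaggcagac
EGFR promoter, chr7:55018767-55019016, plus strand: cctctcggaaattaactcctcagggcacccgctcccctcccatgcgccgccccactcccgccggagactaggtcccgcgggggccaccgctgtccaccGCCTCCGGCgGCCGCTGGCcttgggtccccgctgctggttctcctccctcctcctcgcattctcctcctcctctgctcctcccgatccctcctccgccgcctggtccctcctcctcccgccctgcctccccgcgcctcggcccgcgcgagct

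The EDNRB promoter holds CATGTG, printed as its reverse complement CACATG. In the MC1R promoter a GCCNNNGGC match at base -72 overlaps a CATGTG match at base -64, counted from the start site. The KIT and MET promoters hold none of the 5 motifs, although the first had no peak and the second had peaks of every antibody. The EGFR promoter holds GCCNNNGGC at 2 places. Among 35116 RefSeq promoters of the same length, CATGTG was present in 9.42%, CACGTG in 6.34%, GCCNNNGGC in 19.8%, ACAAAG in 13.7% and ACAATG in 9.29%. These matches describe letters and say nothing of binding.

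Depth and cell identity touch every comparison below. Depth relative to the input, inferred from the steps in the peak values, was 0.889 in DMSO and 0.934 under FHT-1015 for H3K27ac, and 0.934 and 0.858 for SMARCA4. The values for MITF were 0.69 and 0.59, those for TFAP2A were 0.823 and 0.79, and those for SOX10 were 0.982 and 1.124. Thus the SOX10 library of treated cells was the deeper of its pair, while its list held 33268 peaks against 103379 in DMSO. The cell type was checked against H3K27ac peaks in gene bodies. All 10 melanocyte markers had one in DMSO, of which KIT alone had no peak with a −log10 p of 10 or more. Among these markers MC1R, KIT and EDNRB are also members of the set studied here. Of 13 markers of other cell types 2 had one, TP63 and PTPRC, with a −log10 p of up to 126 and 20.8.

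SOX10 was the factor with the fewest peaks left at the receptors. At the 4 lineage receptors the SOX10 lists held 68 peaks in DMSO and 35 under FHT-1015, and at the other 5 receptors 84 and 25. The covered length was 39.3 kb and 14.9 kb at the lineage receptors, and 36.5 kb and 7.23 kb at the others. Peaks whose −log10 p reached 10, called strong from here on, numbered 29 and 10 at the lineage receptors and 41 and 4 at the others. The FHT-1015/DMSO ratio of peak numbers at the other receptors was thus 0.298 over all peaks, 0.0976 over strong peaks and 0.197 over gene bodies without flanks. MC1R, MET, NGFR and EGFR had strong SOX10 peaks in DMSO (7, 12, 3 and 2) and none under FHT-1015.

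A DMSO peak was counted as retained where the FHT-1015 list of its antibody had a peak sharing at least 1 bp with it. For SOX10, 43 of 152 peaks at the 9 receptors were retained, or 28.3% (Wilson 95% interval 21.7 to 35.9), beside 18.3% of all 103379 DMSO peaks in the list. List peaks of the same strength decile were retained at 20.5%. AXL and MC1R had the highest SOX10 shares (4 of 8 and 7 of 14 peaks), followed by ERBB3 with 40.0% and KIT with 37.5%. IGF1R kept 25.0%, NGFR 20.0%, EDNRB 19.2%, MET 17.4% and EGFR none of 4 peaks, and the intervals of neighbours in this order overlapped. Over all SOX10 peaks of the MC1R window, lost and new ones included, the covered length was 10.14 kb in DMSO and 3.26 kb under FHT-1015.

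**Figure D1:**
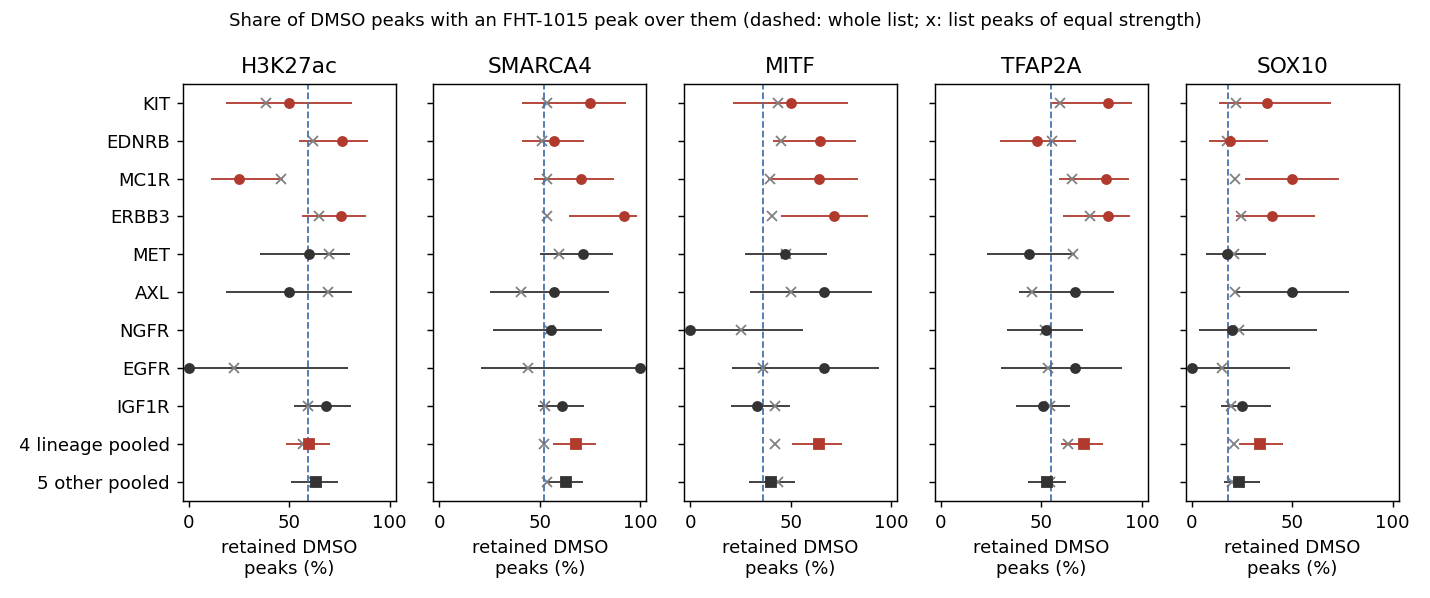
Share of DMSO peaks with an overlapping FHT-1015 peak (x axis, percent) at each receptor and for both classes pooled (squares), with Wilson 95% intervals as bars; red marks lineage receptors, the dashed line the whole list and each cross list peaks of the same strength. For SOX10 the pooled shares were 33.8% and 23.8%, and for MITF 64.2% and 40.3%.

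The other antibodies kept most of their peak numbers at the receptors, as they did in their whole lists. The whole lists held 68093 H3K27ac peaks in DMSO and 48103 under FHT-1015, and 101987 and 89761 SMARCA4 peaks. For MITF they held 89519 and 92716 peaks, and for TFAP2A 142667 and 118942. H3K27ac peaks numbered 72 in DMSO and 57 under FHT-1015 at the lineage receptors, and 60 and 49 at the others. SMARCA4 peaks numbered 72 and 63 at the lineage receptors, and 105 and 97 at the others. Both were lower in number in each class. MITF peaks numbered 53 and 54 at the lineage receptors, and 67 and 64 at the others. TFAP2A peaks numbered 70 and 71 at the lineage receptors, and 106 and 101 at the others. Equal numbers did not mean equal strength: strong MITF peaks numbered 26 and 13 at the lineage receptors and 31 and 15 at the others, ratios of 0.5 and 0.484. The depth of the MITF libraries also differed (0.69 and 0.59 of the input), and its part in this was not tested. Strong TFAP2A peaks numbered 45 and 35 at the lineage receptors, a ratio of 0.778. The directions nearest to no difference turned with the setting. In lineage gene bodies without flanks the H3K27ac ratio was 1.28 (18 and 23 peaks). Strong SMARCA4 peaks at the other receptors had a ratio of 1.05 (22 and 23). With 100 kb flanks the TFAP2A ratios were 0.992 at the lineage and 1.01 at the other receptors.

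**Figure D2:**
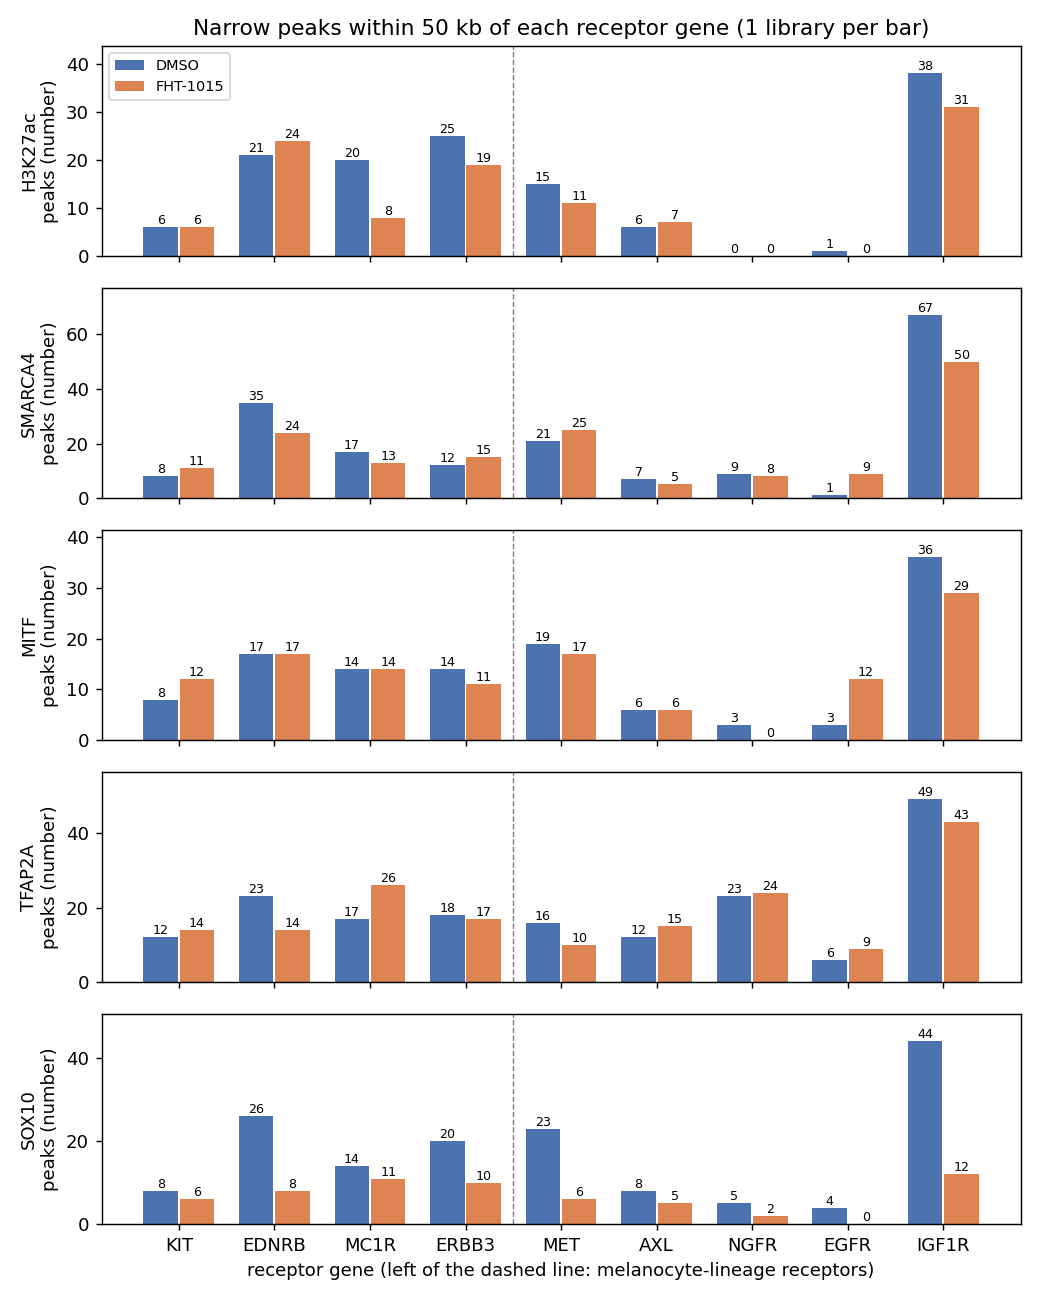
Number of narrow peaks (y axis) in each receptor window for each antibody, DMSO in blue and FHT-1015 in orange, 1 library per bar. SOX10 bars under FHT-1015 are lower at all 9 receptors, while EGFR (SMARCA4 1 and 9, MITF 3 and 12) and KIT (8 and 11, 8 and 12) have more SMARCA4 and MITF peaks under FHT-1015.

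The windows of lineage and other receptors differed in how many MITF and TFAP2A peaks were retained. For MITF, 34 of 53 peaks (64.2%) were retained at the lineage receptors and 27 of 67 (40.3%) at the others, beside 36.2% in the whole list. The difference was 23.9 percentage points (Newcombe 95% interval 5.85 to 39.7). List peaks of the same strength would give 42.3% and 43.5%. For TFAP2A, 50 of 70 peaks (71.4%) were retained at the lineage receptors and 56 of 106 (52.8%) at the others, beside 54.9% in the whole list, a difference of 18.6 points (3.86 to 31.8). List peaks of the same strength would give 63.3% and 54.4%. Both classes of peaks share their libraries, and the peaks are not replicates.

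These differences depended on the loci included and on the threshold set for the FHT-1015 peaks. IGF1R supplied 36 of the 67 MITF peaks of the other class and kept 33.3% of them, and without IGF1R the MITF difference was 15.8 points with an interval from -5.74 to 35.8. With only strong MITF peaks kept in both lists it was 4.84 points. Where any FHT-1015 peak counted, 23 of 26 strong DMSO peaks of MITF were retained at the lineage receptors and 20 of 31 at the others. The TFAP2A interval reached -1.19 without MC1R and -1.92 without ERBB3. With only strong TFAP2A peaks kept in both lists the difference was 32.1 points. Where any FHT-1015 peak counted, 39 of 45 and 33 of 46 strong DMSO peaks of TFAP2A were retained. After subtracting the list share at the same strength the TFAP2A difference was 9.66 points. The share of DMSO peaks within 1 kb of a gene boundary also differed between the classes, at 37.7% against 10.4% for MITF and 24.3% against 9.43% for TFAP2A. Over the peaks away from boundaries the differences were 22.3 points for MITF and 15.2 points for TFAP2A. Most lineage peaks lay in the flanks, where MC1R and ERBB3 have other genes. Only 14 of 53 MITF and 22 of 70 TFAP2A peaks overlapped the lineage gene bodies. In gene bodies alone 9 of 14 lineage and 15 of 47 other MITF peaks were retained. For TFAP2A it was 18 of 22 and 34 of 66.

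For the remaining 3 antibodies the interval of the difference included 0. SOX10 peaks were retained at 33.8% of 68 at the lineage receptors and 23.8% of 84 at the others, a difference of 10.0 points (-4.29 to 24.2), whose interval was 1.98 to 35.9 without EDNRB. SMARCA4 peaks were retained at 68.1% and 62.9%, beside 52.0% in the whole list, a difference of 5.2 points (-9.14 to 18.7). With only strong SMARCA4 peaks kept in both lists the difference was 25.5 points (12 of 15 and 12 of 22 peaks). Where any FHT-1015 peak counted, 14 of 15 and 22 of 22 strong DMSO peaks were retained, the opposite direction. With 100 kb flanks the difference was -0.305, without EDNRB 15.5 and without ERBB3 0.476. H3K27ac peaks were retained at 59.7% and 63.3%, beside 59.3% in the whole list, a difference of -3.61 points (-19.6 to 12.9). The sign of the H3K27ac difference changed without MC1R (9.74 points), without IGF1R (5.18), over gene bodies alone (3.4), after subtracting the list share at the same strength (2.03) and with each locus weighted equally (12.2). In the equal weighting EGFR, with 1 lost H3K27ac peak of −log10 p 2.08, counted as much as IGF1R with 38 peaks.

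KIT had its strongest peak of every antibody outside the gene, and weaker peaks inside it. No peak of any antibody lay within 1 kb of its start site, in either condition, whereas 57.6% of 22011 RefSeq start sites had an H3K27ac peak that close in DMSO and 57.3% under FHT-1015. For SOX10 those shares were 61.9% and 39.0%, for SMARCA4 57.4% and 62.8%, for MITF 44.2% and 41.8%, and for TFAP2A 66.7% and 66.3%. Within the 82.8 kb gene body the H3K27ac peaks reached a −log10 p of only 4.48 in DMSO and 6.69 under FHT-1015. The strong H3K27ac peak of the locus, chr4:54778942-54787019, had its summit 126.93 kb from the start site and ranked 548 among 68093 H3K27ac peaks. No other protein-coding gene lies in the KIT window.

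Under that acetylated stretch were a pair of sites with unlike responses. Reads at a peak's summit were recovered as whole numbers from the authors' fold and p values and compared after scaling each library to its depth, wherever an FHT-1015 summit lay inside the DMSO peak. At the first site TFAP2A had 209 reads in DMSO and 72 under FHT-1015 (chr4:54781588-54782529, depth-scaled ratio 0.359, 95% interval 0.271 to 0.471). SOX10 had 156 and 28 reads there (chr4:54781065-54783019, ratio 0.157, 0.101 to 0.236), and MITF 99 and 29 (chr4:54781367-54782280, ratio 0.343, 0.218 to 0.523). The 3 factors were thus all lower at this site. At the second site MITF had 237 and 241 reads (chr4:54783590-54784628, ratio 1.19, 0.99 to 1.43), TFAP2A 72 and 99 (ratio 1.43, 1.05 to 1.97) and SOX10 161 and 135 (ratio 0.733, 0.578 to 0.927). SMARCA4 there had 49 and 99 reads (chr4:54783502-54784607, ratio 2.2, 1.55 to 3.16), and its rank in its list was 4520 in DMSO and 280 under FHT-1015. The H3K27ac peak over both sites had its DMSO summit at 126.93 kb from the start site, nearer the second site. It had 225 and 307 reads at its summit (ratio 1.3, 1.09 to 1.55), and no H3K27ac value was taken at the first site. In the whole H3K27ac list, strong retained peaks with a counterpart summit had a median ratio of 1.13 (quartiles 0.666 and 1.44). The first MITF site and the second TFAP2A and SOX10 sites lie outside the naming rule and were chosen after their values were seen. The summits of the 2 sites lay at 124.01 and 126.33 kb from the start site for TFAP2A.

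KIT also kept a row of weaker TFAP2A peaks inside the gene. TFAP2A had 12 peaks in DMSO, of which 10 (83.3%) were retained, and all 8 strong ones were among them. SOX10 had 8 peaks and retained 3, and its strongest lost peak was chr4:54741133-54741651 with 40 reads, just past the end of the gene. MITF had 8 peaks in DMSO and 12 under FHT-1015, of which 9 were new, and the strongest new one had 9 reads.

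**Figure D3:**
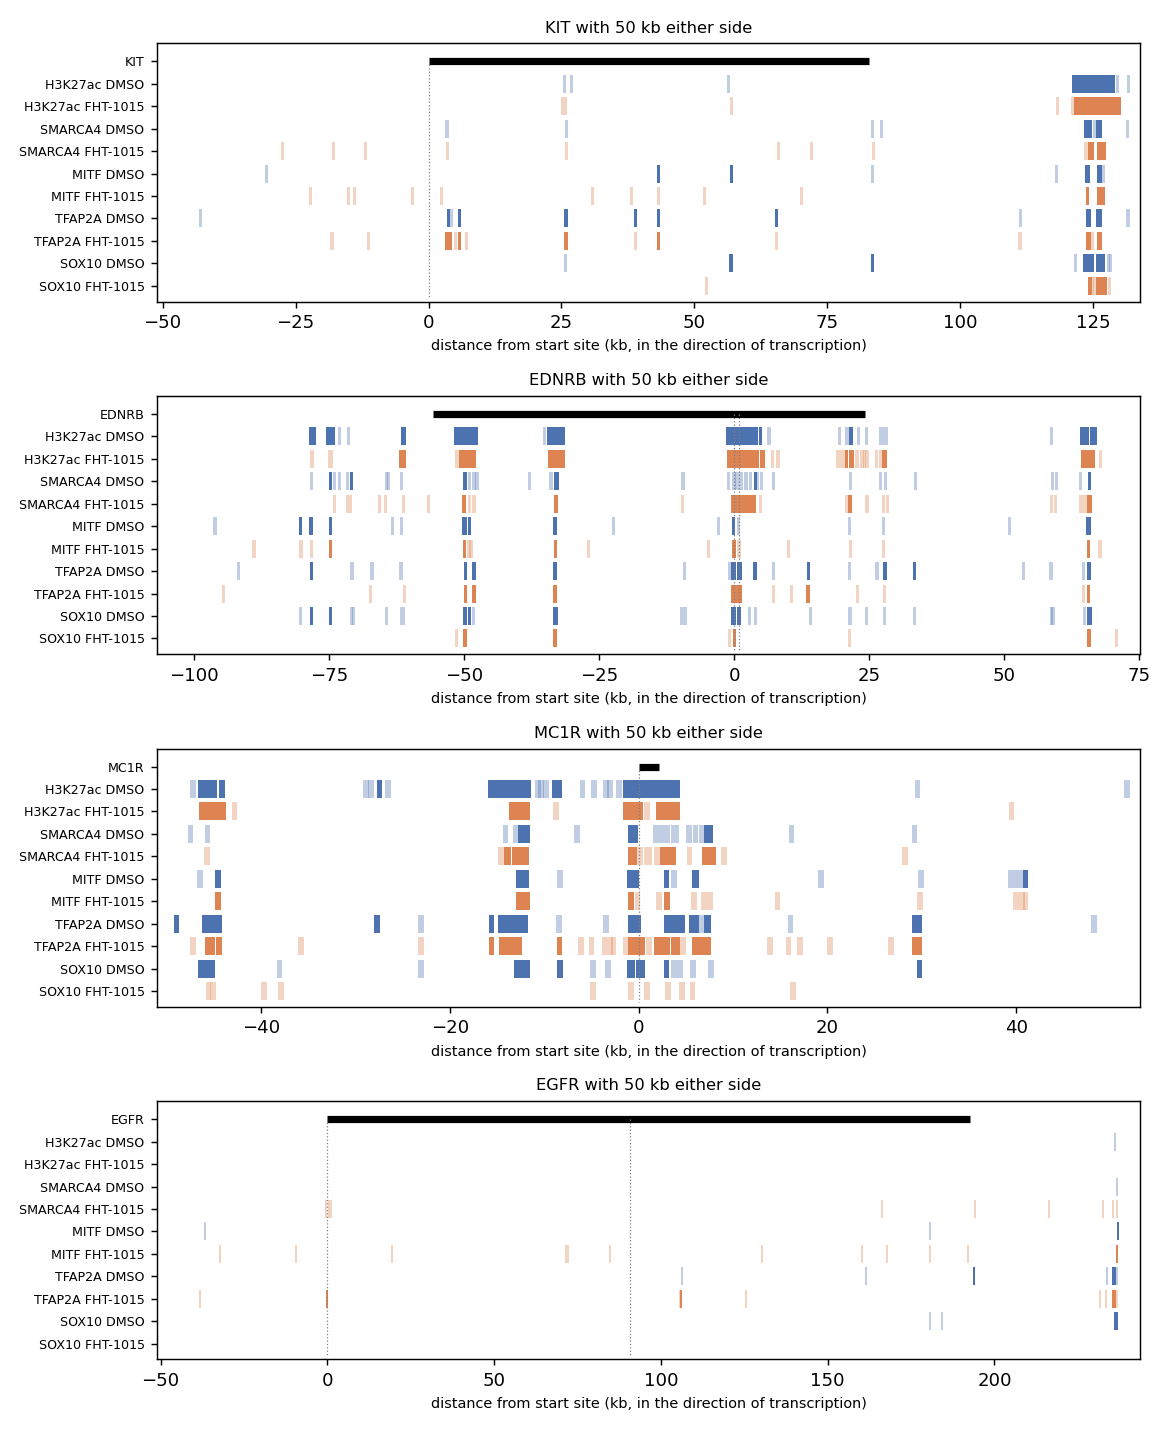
Peaks along KIT, EDNRB, MC1R and EGFR (x axis, kb from a start site, gene body as a black bar, start sites dotted), 1 row per antibody and condition, strong peaks solid and weaker ones pale; peaks under 0.6 kb are drawn 0.6 kb wide. The H3K27ac peak of KIT with 225 reads lies beyond the gene end, and the start sites of EDNRB and MC1R lie under H3K27ac peaks while that of KIT does not.

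EDNRB kept most of its H3K27ac peaks and lost most of its SOX10 peaks, with shares not set apart from those of the lists. H3K27ac had 21 peaks in DMSO and 24 under FHT-1015. Of the 21, 16 were retained (76.2%, 54.9 to 89.4), beside 59.3% in the whole list. SOX10 had 26 and 8 peaks, with 5 of 26 retained (19.2%), beside 18.3% in the whole list. TFAP2A had 23 and 14, SMARCA4 35 and 24, and MITF 17 in both, with 11 retained. At the start site chr13 77919682 the peaks of TFAP2A, MITF, SOX10 and H3K27ac covered the start itself in both conditions. TFAP2A had 203 and 152 reads there (ratio 0.78, 0.628 to 0.967), MITF 64 and 57 (ratio 1.04, 0.716 to 1.51), SOX10 67 and 44 (ratio 0.574, 0.383 to 0.852) and H3K27ac 126 and 160 (ratio 1.21, 0.951 to 1.54). The peaks at this start site other than that of TFAP2A, and those at the MET start site, lie outside the naming rule.

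The strongest EDNRB sites of 3 antibodies coincided at -33.17 kb from a start site, upstream and inside the annotated gene extent. H3K27ac had 172 and 185 reads there (chr13:77951074-77954416, ratio 1.02, 0.827 to 1.27), and SMARCA4 76 and 74 (chr13:77952132-77953056, ratio 1.06, 0.759 to 1.48). SOX10 had 161 and 114 reads (chr13:77952353-77953208, ratio 0.619, 0.482 to 0.791). The strongest MITF peak lay farther out, at -49.81 kb, with 195 and 93 reads (chr13:77969232-77970073, ratio 0.558, 0.431 to 0.718). At that position TFAP2A (149 and 66 reads, ratio 0.461), SOX10 (149 and 55, ratio 0.322) and MITF were all lower, while H3K27ac had 129 and 139 reads (ratio 1.03), values chosen after they were seen. So the site at -33.17 kb and the site at -49.81 kb had like acetylation in both conditions and unlike ratios of bound factor.

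MC1R is a gene of 2.11 kb, and its window also holds SPIRE2, TCF25, LOC124903759, TUBB3 and DEF8. H3K27ac peaks numbered 20 in DMSO and 8 under FHT-1015, and 5 of 20 were retained (25.0%, 11.2 to 46.9). MC1R was the 1 member of 7 with at least 5 H3K27ac peaks whose ratio was at most 0.5, and 22.7% of all such gene windows were. The covered H3K27ac length was 18.8 kb and 11.4 kb, a smaller difference in length than in number. The strongest lost one had a −log10 p of 11.9.

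Acetylation was higher at the MC1R start and lower at an upstream element under FHT-1015. At the start site H3K27ac had 186 and 303 reads (chr16:89917173-89923227 in DMSO, ratio 1.55, 1.29 to 1.87). Over an upstream element, with its summit at -12.24 kb and overlapping TCF25, it had 241 and 149 reads (chr16:89902911-89907439, ratio 0.588, 0.476 to 0.725). At that element MITF had 207 and 66 reads (chr16:89905823-89907298, ratio 0.373, 0.278 to 0.494). The SOX10 peak there, chr16:89905649-89907312, had 114 reads in DMSO and no FHT-1015 peak over it. SMARCA4 had 60 and 76 reads (ratio 1.38, 0.97 to 1.97) at the same element. MITF and SOX10 were thus lower and SMARCA4 was not.

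Near the MC1R start the factors were lower beside the higher acetylation. The DMSO summits compared here lay at -0.84 kb for TFAP2A and MITF and at -0.89 kb for SOX10. They were thus outside the printed promoter and its motif matches. TFAP2A had 257 and 165 reads (chr16:89917722-89919141, ratio 0.669, 0.547 to 0.816). MITF had 125 and 42 (ratio 0.393, 0.27 to 0.561) and SOX10 87 and 41 (ratio 0.412, 0.277 to 0.603), both chosen after their values were seen. So was a SOX10 peak over the printed promoter, chr16:89918565-89919504, with 39 reads in DMSO and no FHT-1015 peak over it. SMARCA4 had 50 and 49 reads (ratio 1.07, 0.705 to 1.61). The SMARCA4 and H3K27ac peaks at this start were picked in the same way. New TFAP2A peaks added to the locus, with 17 in DMSO and 26 under FHT-1015, of which 12 were new and the strongest new one had 18 reads.

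ERBB3 lies among 8 other protein-coding genes, IKZF4, RPS26, PA2G4, RPL41, ZC3H10, ESYT1, LOC124902942 and MYL6B, and 15 of its 25 H3K27ac peaks were at a gene boundary. The strongest H3K27ac, MITF and TFAP2A peaks of the window lay outside ERBB3. H3K27ac had 215 and 275 reads at chr12:56113839-56117623 (ratio 1.22, 1.01 to 1.46), and TFAP2A 235 and 260 at chr12:56104057-56104869 (ratio 1.15, 0.962 to 1.38). The strongest SOX10 peak lay inside ERBB3, and the strongest SMARCA4 peak over its lower-coordinate end. The SOX10 one, chr12:56082858-56083617, had 146 reads, ranked 838 among 103379 and had no FHT-1015 peak over it. A SOX10 peak beside it, chr12:56080717-56082358, had 134 and 20 reads (ratio 0.13, 0.0772 to 0.21).

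Near the lower-coordinate end of ERBB3, chr12 56080108, TFAP2A was lower at 2 peaks and higher at 1 within a short stretch. At chr12:56082933-56083649 it had 183 and 26 reads (ratio 0.148, 0.0942 to 0.224), and at chr12:56080734-56082813 it had 170 and 54 (ratio 0.331, 0.239 to 0.452), both inside the gene. At chr12:56078934-56079538, outside the gene, it had 127 and 158 reads (ratio 1.3, 1.02 to 1.65). H3K27ac over chr12:56079102-56084594 had 197 and 74 reads (ratio 0.358, 0.27 to 0.469). SMARCA4 over chr12:56079899-56083677 had 49 and 35 (ratio 0.778, 0.489 to 1.22), with the 2 summits 1533 bp apart. These 3 TFAP2A peaks, the H3K27ac peak and the second SOX10 peak were chosen after their values were seen. The window as a whole retained 19 of 25 H3K27ac peaks, 11 of 12 SMARCA4 peaks and 15 of 18 TFAP2A peaks.

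MET had peaks of all 5 antibodies at its start site and no strong SOX10 peak under FHT-1015. SOX10 had 23 and 6 peaks, MITF 19 and 17, and TFAP2A 16 and 10. H3K27ac had 15 and 11, and SMARCA4 21 and 25. At the start site SMARCA4 had 33 reads in DMSO and 68 under FHT-1015, with the −log10 p at 8.38 and 50.4. TFAP2A had 82 and 74 reads there (ratio 0.94, 0.677 to 1.3), SOX10 50 and 32 (ratio 0.559, 0.347 to 0.889), and MITF 30 and 19.

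Inside MET some factor sites were lower together with the acetylation and others were lower beside like acetylation. At 36.88 kb from the start MITF had 178 and 73 reads (chr7:116708672-116709503, ratio 0.48, 0.36 to 0.633). SOX10 had 116 and 28 reads there (chr7:116708908-116709338, ratio 0.211, 0.134 to 0.321), and H3K27ac 116 and 64 (chr7:116707585-116710321, ratio 0.525, 0.381 to 0.719). At 26.37 kb the MITF peak chr7:116698270-116698922 (82 reads) and the SOX10 peak chr7:116698378-116698969 (60 reads) had no FHT-1015 peak. The TFAP2A peak chr7:116695301-116695700, with 112 reads, was also lost. H3K27ac over this stretch, chr7:116694752-116700343, had 85 and 34 reads (ratio 0.381, 0.248 to 0.573). By contrast the strongest TFAP2A peak, chr7:116674593-116675319, had 130 and 43 reads (ratio 0.345, 0.238 to 0.49) under the strongest H3K27ac peak, chr7:116672378-116675371, with 152 and 141 (ratio 0.883, 0.697 to 1.12). At 44.58 kb TFAP2A had 107 and 55 reads (ratio 0.535, 0.38 to 0.748) and MITF 38 and 19 (ratio 0.585, 0.318 to 1.04), beside 41 and 38 for H3K27ac (ratio 0.882, 0.552 to 1.41). SMARCA4 had 29 and 40 there (ratio 1.5, 0.908 to 2.51), and the SOX10 peak, with 41 reads, was lost. The H3K27ac peaks at 36.88 and 26.37 kb and the peaks at 44.58 kb were chosen after their values were seen, as was the MET upstream flank at chr7:116628639-116632449, where H3K27ac had 153 and 160 reads (ratio 0.995, 0.792 to 1.25).

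IGF1R, the longest gene of the set at 316 kb, held the most peaks of every antibody. SOX10 had 44 and 12 peaks, with 11 retained (25.0%). Its strongest SOX10 peak, chr15:98815156-98815797 at 166.91 kb from the start, ranked 119 in the DMSO list and had 181 and 29 reads (ratio 0.14, 0.0912 to 0.208). The strongest MITF peak, chr15:98839992-98840648, had 166 and 39 reads (ratio 0.275, 0.189 to 0.391), and the SOX10 peak over it (68 reads) was lost. The strongest H3K27ac peak, chr15:98864297-98869062, had 170 and 226 (ratio 1.27, 1.03 to 1.55), and the strongest TFAP2A peak, chr15:98872894-98874302, had 158 and 126 (ratio 0.831, 0.652 to 1.06). H3K27ac over that SOX10 site had 50 and 36 reads (chr15:98813455-98816372, ratio 0.685, 0.434 to 1.07). Over that MITF site it had 70 and 31 (chr15:98839376-98843226, ratio 0.422, 0.267 to 0.652), and both H3K27ac peaks were chosen after their values were seen. IGF1R thus held strongly lower factor sites and, at another place, an acetylated site with a ratio of 1.27. Strong retained H3K27ac peaks of the whole list had a median ratio of 1.13, with quartiles of 0.666 and 1.44. The 1.27 lay within these quartiles, as did the strongest H3K27ac peaks of KIT (1.3), ERBB3 (1.22) and AXL (1.35).

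**Figure D4:**
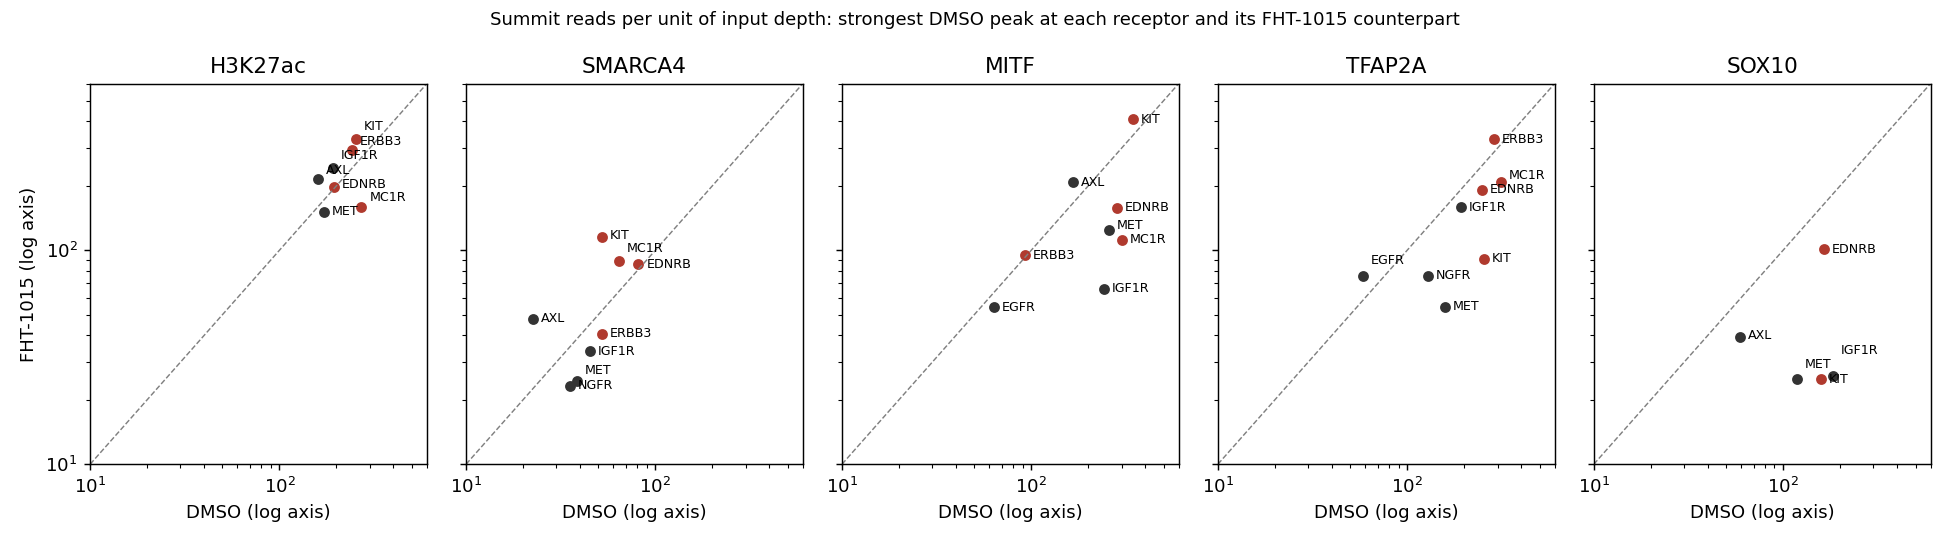
Summit reads per unit of input depth (log axes, DMSO on x and FHT-1015 on y) at the strongest DMSO peak of each receptor that had an FHT-1015 summit inside it; red marks lineage receptors and the dashed line equal reads. All 5 SOX10 points lie below the line, and the KIT MITF site (343 and 408) lies above it.

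EGFR had no peak of any antibody within 1 kb of its start sites in DMSO. AXL had no peak within 1 kb of its first start site, chr19 41219223, in either condition, and none of H3K27ac or SOX10 at its second, chr19 41226755. The strongest H3K27ac peak of the AXL window, chr19:41264169-41267729, had 142 and 202 reads (ratio 1.35, 1.09 to 1.69) and lay in the neighbour HNRNPUL1. SMARCA4 there had 21 and 41 reads (ratio 2.13, 1.23 to 3.79), with the summits 577 bp apart. The strongest SOX10 and MITF peaks lay at another neighbour, CCDC97, with 58 and 44 SOX10 reads (ratio 0.663, 0.437 to 0.998) and 115 and 123 MITF reads (ratio 1.25, 0.962 to 1.63). The 4 of 8 SOX10 peaks retained in the AXL window all lay in its flanks, and no SOX10 peak lay in the AXL gene body in either condition.

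NGFR had no H3K27ac peak in either condition, as did 12.3% of all gene windows. It did have TFAP2A peaks, 23 in DMSO and 24 under FHT-1015, with 12 retained. The strongest one, chr17:49508387-49508908 inside the gene, had 105 and 60 reads (ratio 0.595, 0.426 to 0.825), and SMARCA4 at the same place had 33 and 20 (ratio 0.66, 0.359 to 1.18). At the lower-coordinate end of the NGFR gene body a TFAP2A peak, chr17:49494980-49495618, had 32 reads in DMSO, and 2 FHT-1015 peaks of 16 reads overlapped it, values chosen after they were seen. All 3 MITF peaks were lost, and 1 of 5 SOX10 peaks was retained. The strongest SOX10 peak, chr17:49454078-49454396, had 73 reads in DMSO and was lost.

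At EGFR most SMARCA4 and MITF peaks under FHT-1015 were new. SMARCA4 had 1 peak in DMSO and 9 under FHT-1015, and MITF had 3 and 12. EGFR was the 1 member, of 9 and of 8 with at least 5 peaks, whose ratio was at least 2, as for 6.3% of gene windows for SMARCA4 and 11.6% for MITF. With 100 kb flanks the ratios were 3.33 and 2.6 in place of 9 and 4. The new SMARCA4 and MITF peaks all had a −log10 p under 10, and the strongest new SMARCA4 peak, chr7:55019107-55019671 at the first start site, had 13 reads. A new TFAP2A peak, chr7:55018647-55018945, had 16 reads and lay over the promoter printed above, which had no peak of any antibody in DMSO. The strongest DMSO peak of each antibody lay beyond the gene, with TFAP2A at 144.76 kb from the second start (chr7:55254377-55255359, 48 and 60 reads, ratio 1.3, 0.876 to 1.94). The strongest MITF peak lay farther out, at 146.12 kb, with 44 and 32 reads (chr7:55255716-55256142, ratio 0.851, 0.522 to 1.37). All 4 SOX10 peaks of the EGFR window were lost.

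Across all members, the reads of retained peaks were compared with those of the whole list. The 30 strong retained SOX10 peaks with a counterpart summit all had a depth-scaled ratio below 1, with a median of 0.467, and 98.5% of 12922 such peaks in the list did, with a median of 0.511. The median for strong MITF peaks was 0.702 over 43 peaks, against 0.622 in the list, and for TFAP2A 0.764 over 65, against 0.723. For SMARCA4 it was 0.918 over 33 peaks, against 0.943. For H3K27ac it was 1.02 over 49 peaks, against 1.13 in the list. By class, the lineage median was higher for H3K27ac (1.18 over 25 peaks, other 0.883 over 24) and SMARCA4 (1.13 over 12, other 0.884 over 21). It was also higher for TFAP2A (0.841 over 36, other 0.69 over 29). It was lower for MITF (0.585 over 23, other 0.735 over 20) and SOX10 (0.432 over 17, other 0.472 over 13). No difference between these medians was tested. The receptors' medians for SOX10, MITF, TFAP2A and SMARCA4 were thus near those of the list.

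SOX10 peaks at the receptors were also counted by how many of the other antibodies had a peak in the same place. Of the 152 SOX10 peaks in DMSO, 114 overlapped an H3K27ac peak (49.6% did in the whole list). Further, 68.4% overlapped a SMARCA4 peak (55.0%), 63.2% a TFAP2A peak (61.3%) and 53.3% a MITF peak (45.0%). With all 4 others present, 25 of 54 SOX10 peaks were retained (46.3%). With 3 others it was 10 of 34, with 2 it was 5 of 27, with 1 it was 2 of 23, and with none it was 1 of 14. In the whole SOX10 list the shares were 39.5% with 4 others, 20.2% with 3, 11.1% with 2, 6.4% with 1 and 8.43% with none. Among the peaks with all 4 others, 15 of 24 were retained at the lineage receptors and 10 of 30 at the other receptors. Peaks with a MITF partner were retained in 39.5% of 81 cases and those without in 15.5% of 71. The median −log10 p was 17 with a MITF partner and 4.59 without, and the part of peak strength in this was not tested. For MITF 6 of 23 peaks were retained with none of the others, 4 of 12 with 1, 3 of 12 with 2, 12 of 23 with 3 and 36 of 50 with all 4. In the whole MITF list the shares were 18.8%, 26.8%, 31.8%, 42.1% and 61.0%.

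The number of SOX10 peaks in the receptor windows was set beside that of all genes and of related genes. Of the 8 members with at least 5 SOX10 peaks, 5 had an FHT-1015/DMSO ratio of at most 0.5 (MET, ERBB3, EDNRB, IGF1R and NGFR), and 73.1% of all such gene windows did. The median ratio was 0.45 for the receptors and 0.333 for all genes. Among ligands of these receptors, 11 of 14 windows with enough peaks were at most 0.5, with a median of 0.214, and KITLG, which encodes stem cell factor, was one of them. Among related receptors 14 of 16 were, with a median of 0.276, including ERBB2, the partner of ERBB3, and EDNRA, the other endothelin receptor. Among intracellular signalling partners 12 of 17 were, with a median of 0.417. No window of these lists had a ratio of 2 or more for SOX10, nor did any of the 9 receptors, beside 0.313% of all windows.

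**Figure D5:**
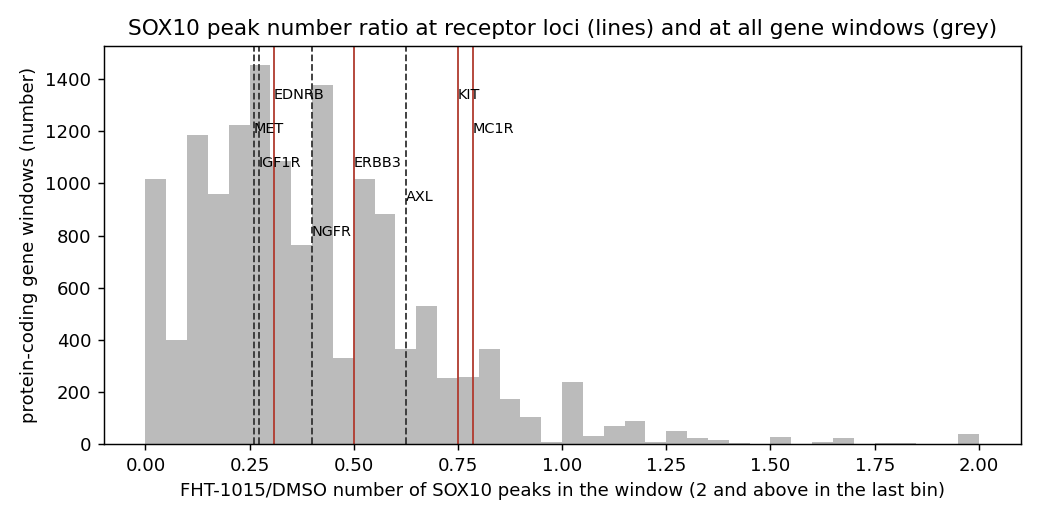
Number of protein-coding gene windows (y axis) by their FHT-1015/DMSO ratio of SOX10 peak numbers (x axis), among windows with at least 5 such peaks, with red lines for lineage and dashed black lines for other receptors. MET (0.261) and IGF1R (0.273) lie lowest and MC1R (0.786) and KIT (0.75) highest among the 8 receptors shown.

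The same lists were counted for the other antibodies. SMARCA4 ratios of at most 0.5 occurred in 7.75% of all windows, in none of the 9 receptors and in 2 of 16 ligands (BTC and IGF1), 2 of 16 related receptors (EDNRA and PDGFRB) and 1 of 17 partners (CREB1). MITF ratios of at most 0.5 occurred in 12.2% of all windows and in none of 8 receptors, in 4 of 16 signalling partners (IRS1, PIK3R1, IRS2 and ADCY9), 2 of 18 ligands (EDN2 and IGF1) and 2 of 17 related receptors (IGF2R and NTRK2). The adaptors IRS1 and IRS2 carry the signal of IGF1R. TFAP2A ratios of at most 0.5 occurred in 9.69% of all windows, in none of the 9 receptors and in 4 of 19 ligands (EDN1, NRG3, IGF1 and ASIP), ASIP being the antagonist of MC1R, in 3 of 20 related receptors (KDR, EDNRA and NTRK2) and in none of 17 partners. H3K27ac ratios of at most 0.5 occurred in 22.7% of all windows, in 4 of 11 related receptors (CSF1R, NTRK2, ERBB2 and MC3R), 2 of 6 ligands (NRG2 and IGF1) and 2 of 15 partners (LRIG1 and CBLB). MITF ratios of 2 or more occurred in 3 of 18 ligands (EDN1, BDNF and EDN3), 2 of 17 related receptors (PDGFRA and NTRK3) and 1 of 16 partners (PIK3CA), beside 11.6% of all windows. SMARCA4 ratios of 2 or more occurred in 2 of 16 ligands (TGFA and NRG4) and in none of 16 related receptors or 17 partners, beside 6.3% of all windows. Ratios of 2 or more occurred in 1.03% of windows for H3K27ac and 2.38% for TFAP2A, and in no receptor.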

How the data were processed

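Peak lists of 10 immunoprecipitation libraries were used, and the input library had no list among those analysed here. The submitters' processing notes name BWA, SAMtools, Picard, MACS2 and the hg38 build, and the control and settings are not given in the sources used here. The lists have the MACS2 layout, with 1 score per peak, a fold enrichment (ratio) over background, a −log10 p and a −log10 q, and a summit offset, all as deposited by the authors. Peaks were called per library, since each library has its own list. The 10 narrow lists were used, and the 4 broad lists of H3K27ac and SMARCA4 served as an alternative. The lowest −log10 p in the lists was 2.0 to 2.01, and between 57.9% and 95.8% of peaks had a q under 0.05, so weak peaks are in every list.

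Gene extents came from RefSeq GRCh38.p14, and windows were the extents with 50 kb flanks. Exons and introns were not analysed here. Retained means an overlap of at least 1 bp. Shares carry Wilson 95% intervals, differences Newcombe intervals, and read ratios exact binomial ones. Strong means a −log10 p of at least 10. Summit reads were inferred from the deposited fold and −log10 p, with background plus 1 in the denominator and a Poisson tail. Whole reads (tolerance 0.01) came out for 98.79% to 100% of peaks in 9 lists and for 91.83% in the FHT-1015 SOX10 list, which the caller had scaled by 0.89. The depths relative to input come from the steps of the same values. Overlaps, read recovery and motif search were tested on simulated data. Python 3.11.15, numpy 2.4.6, scipy 1.17.1, pandas 2.3.3 and matplotlib 3.10.9 were used.

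By rule the text names all 9 receptors and may name, per receptor and antibody, the strongest DMSO, lost and new peak, of which it gives a part, and says where a peak was picked otherwise. A window passed a fold at a ratio of at most 0.5 or at least 2 with at least 5 peaks in either condition. The members, classes and lists were chosen with earlier results of these data known. With 1 library per antibody and condition no test was run. The alternatives were other thresholds, overlaps, flanks, weights and peak sets, and, added after seeing the data, each locus left out in turn.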

Additional observations from a re-analysis of the deposited data

How the results depend on the processing

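The difference in retained share between lineage and other receptors stayed in its direction and within its interval in 73 of 82 alternatives over the 5 antibodies. This count is no measure of stability. It includes leaving out each of the 9 loci, which reuses most of the same peaks. Leaving out NGFR, which had no H3K27ac peak, could not change the H3K27ac difference. The intervals for H3K27ac, SMARCA4 and SOX10 were also wide and included 0. With weak peaks (−log10 p under 10) removed from both lists it was 25.5 points for SMARCA4, 4.84 for MITF and 32.1 for TFAP2A. With 100 kb flanks the SMARCA4 difference was -0.305. The H3K27ac difference, -3.61 as reported, was 3.4 in gene bodies alone, 2.03 after subtracting the list share at the same strength, 12.2 with loci weighted equally, 9.74 without MC1R and 5.18 without IGF1R. Leaving out a locus, an alternative chosen after seeing the data, gave 15.8 to 26.7 points for MITF, 14.5 to 30.1 for TFAP2A, 5.82 to 19 for SOX10, and 0.476 to 15.5 for SMARCA4. After subtracting the list share at the same strength the TFAP2A difference was 9.66. Peak number ratios stayed in direction and within 1.5 times in 13 of 17 alternatives at lineage and 12 of 17 at other receptors. With weak peaks removed the ratio was 0.5 for lineage MITF, 0.484 for other MITF, 0.778 for lineage TFAP2A, 1.05 for other SMARCA4 and 0.0976 for other SOX10. In gene bodies alone it was 1.28 for lineage H3K27ac and 0.197 for other SOX10. With 100 kb flanks it was 0.992 for lineage and 1.01 for other TFAP2A, 3.33 for SMARCA4 at EGFR and 2.6 for MITF at EGFR, and 39 of 41 single-locus ratios stayed within 1.5 times. The causes were not tested. No paired analysis was possible because the labels give no replicate numbers and each antibody has 1 library per condition. The share of peaks with a q under 0.05 was lowest in the SOX10 (57.9%) and MITF (61.1%) lists of FHT-1015.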

Other observations

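Genes whose windows held peak numbers most like those of a lineage receptor over the 10 libraries were found by Euclidean distance in log2(peak number + 1). For KIT it was MIA2 (distance 0.57), with 8 SOX10 peaks in DMSO and 5 under FHT-1015 beside 8 and 6 at KIT. For EDNRB it was PDE3A (0.77), with 32 and 6 SOX10 peaks beside 26 and 8. For MC1R it was TXNL4A (0.5), whose H3K27ac peaks numbered 21 and 8 beside 20 and 8. For ERBB3 it was TTC9C (0.68), with 23 and 13 SOX10 peaks beside 20 and 10.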
